A study of Homo sapiens with 12 samples.

Results

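The genes described here are 115 transcripts of T47D breast cancer cells that carry the names of long intergenic noncoding RNAs or of noncoding host genes. They were selected on raw counts. Symbols of the forms LINC plus a number, SNHG plus a number, and MIR plus a name ending in HG were kept if at least 3 of the 12 libraries held at least 10 counts. Of 55882 symbols in the deposited table, 649 had 1 of these forms, and 376 of these 649 had no count in any library. The rule kept 96 of 614 LINC symbols, 13 of 15 SNHG symbols and 6 of 20 MIR host symbols. All 115 members were among the 14799 genes that passed the filter for testing.

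The count level alone chose the members, so their being expressed is not a result. In 72 members all 12 libraries held at least 10 counts, and in 16 members 6 or fewer did. Just inside the rule, with exactly 3 such libraries, were LINC01117 (101 counts in all), LINC00634 (72) and LINC00167 (57). Just outside, with exactly 2, were 6 symbols, led by LINC00484 (83 counts in all), LINC00475 (81), LINC00659 (76) and LINC01057 (74). LINC01016, LINC00634 and LINC01117 met the rule through estradiol libraries only, and LINC00365 through vehicle libraries only. Such a member had to differ between treatments to be kept, and its response to estradiol is given as a description, without a test. LINC01016 was in addition singled out because its response was already known from these libraries.

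LINC symbols are placeholder names for long RNAs that are transcribed between protein-coding genes and have no established function at the time of naming. SNHG genes are small nucleolar RNA host genes: snoRNAs, which guide the chemical modification of ribosomal RNA, are cut from their introns, while the spliced exons form a separate RNA that is often degraded quickly. MIR host genes carry microRNA hairpins, from which Drosha and Dicer release the short RNAs that silence messenger RNAs through the seed at their 5′ end. A read count for a host gene measures the long transcript, not the snoRNA or microRNA inside it.

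T47D is an established luminal cell line that expresses the estrogen receptor and depends on estrogen for growth. HOXB13, a homeobox transcription factor, was introduced ectopically in the HOXB13 cells, while the control cells are labelled as wild type. The 4 groups were HOXB13 cells in 2 nM estradiol, HOXB13 cells in ethanol vehicle, control cells in 2 nM estradiol and control cells in ethanol vehicle, each for 24 h and with 3 libraries. All cells spent 72 h in phenol-free medium with charcoal-stripped serum before treatment. The labels do not state whether the control cells held an empty vector, whether the HOXB13 cells were a clone or a pool, or whether the 3 libraries came from separate cultures. The p-values therefore measure only the spread between these libraries.

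HOXB13 had 92 to 112 counts in each of the 6 HOXB13 libraries and 0 to 2 in each of the 6 control libraries. Depth was 17679824 to 21385996 counts per library. The estrogen markers GREB1, PGR, TFF1 and MYC all rose with estradiol in control cells, and all of these except PGR rose in HOXB13 cells. Markers of leukocytes, endothelium, stroma, fat and basal epithelium summed to 1.17 to 3.80 CPM (counts scaled to a common library size) in a library, and the endothelial CDH5 was at 0. The 4 libraries numbered 2 stood apart on the second principal component (17.8% of the variance) in every group. Counts without these libraries stand beside the class counts.

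The names and positions of the members were looked up in RefSeq (GRCh38.p14), where 81 matched by current symbol and 33 by an older one. LINC00087 had no match. The description as noncoding held for 104 of the matched members. The other 10 are now classed as protein-coding, among them LINC00116 (now MTLN, the mitochondrial microprotein mitoregulin), LINC00094 (BRD3OS), LINC00493 (SMIM26) and LINC00998 (SMIM30). Several members on LINC numbers also have newer names: LINC00657 is NORAD, LINC00565 is SWINGN, LINC01137 is LITATS1 and LINC00936 is ATP2B1-AS1. Of the 109 members matched in GENCODE 29, 45 share exon sequence with another gene on either strand. The strand setting of the counting is not given in the sources used here, so the counts of such members may hold reads of their partners. This applies to SNHG3, which overlaps RCC1 on the same strand, to SNHG10, which lies opposite GLRX5, and to LINC01116, which lies opposite LINC01117.

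Small RNAs are annotated inside a minority of the members. In GENCODE 29, 15 of the 109 matched members contain at least 1 snoRNA or small Cajal body RNA. The number ran from 1 in SNHG5, SNHG6, SNHG8, SNHG10 and SNHG15 to 7 in SNHG1. SNHG14, the host of the imprinted SNORD115 and SNORD116 clusters, held 84. Annotated microRNAs lie inside 11 of these 109 members, the 6 MIR host genes and 5 LINC genes. LINC00669 and LINC00969, now named MIR924HG and MIR570HG, had no match in GENCODE 29 and were not searched. The mature sequences that share a seed are shown here, because more than 1 hairpin of these hosts carries each of these seeds. Capitals mark the seed, bases 2 to 8, in RefSeq sequence written 5′ to 3′. The miR-30 pair lies in LINC00472, which fell with estradiol in both genotypes (values below). The let-7 seed is shared by LINC00478 and MIR4458HG, and the miR-195 and miR-497 pair lies in MIR497HG.
hsa-miR-30a-5p: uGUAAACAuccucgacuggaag
hsa-miR-30c-5p: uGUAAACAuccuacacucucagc
hsa-let-7c-5p: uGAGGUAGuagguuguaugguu
hsa-miR-4458: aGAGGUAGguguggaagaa
hsa-miR-195-5p: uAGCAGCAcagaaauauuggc
hsa-miR-497-5p: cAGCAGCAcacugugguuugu

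Promoters of 4 members that responded to estradiol are shown, from 250 bases before to 50 bases after the RefSeq start (GRCh38.p14), written 5′ to 3′ along the gene's own strand. LINC01016 (chr6:33896858-33897157, minus strand) had the largest increase and is given as a description. LINC00565 (chr13:113928942-113929241, minus strand) had the largest increase among the other members that passed. LINC01137 (chr1:37474394-37474693, minus strand) and LINC00863 (chr10:87342486-87342785, plus strand) were the decreases in control cells that held whichever library was left out. Capitals mark every match of the motifs searched on both strands, which were the palindromic estrogen response element GGTCANNNTGACC, its single arm GGTCA, the E-box CACGTG, the HOXB13 core motif CCAATAAA and the GC box GGGCGG.
LINC01016: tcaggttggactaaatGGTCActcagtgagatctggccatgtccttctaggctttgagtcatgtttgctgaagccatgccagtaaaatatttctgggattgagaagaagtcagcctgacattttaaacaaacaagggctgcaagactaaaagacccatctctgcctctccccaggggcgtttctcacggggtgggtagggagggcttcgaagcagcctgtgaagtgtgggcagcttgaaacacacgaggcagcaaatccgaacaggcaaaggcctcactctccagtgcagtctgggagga
LINC00565: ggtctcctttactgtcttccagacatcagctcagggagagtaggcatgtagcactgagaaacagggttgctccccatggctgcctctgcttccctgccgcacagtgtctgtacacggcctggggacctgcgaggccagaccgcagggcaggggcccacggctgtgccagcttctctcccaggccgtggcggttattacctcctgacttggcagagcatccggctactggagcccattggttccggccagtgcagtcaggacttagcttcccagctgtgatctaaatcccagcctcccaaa
LINC01137: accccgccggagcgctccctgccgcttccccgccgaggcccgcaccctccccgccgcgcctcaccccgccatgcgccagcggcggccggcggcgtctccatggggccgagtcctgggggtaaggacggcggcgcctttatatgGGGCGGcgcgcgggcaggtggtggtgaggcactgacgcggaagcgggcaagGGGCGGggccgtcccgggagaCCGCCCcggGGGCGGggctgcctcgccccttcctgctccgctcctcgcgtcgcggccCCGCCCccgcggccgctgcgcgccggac
LINC00863: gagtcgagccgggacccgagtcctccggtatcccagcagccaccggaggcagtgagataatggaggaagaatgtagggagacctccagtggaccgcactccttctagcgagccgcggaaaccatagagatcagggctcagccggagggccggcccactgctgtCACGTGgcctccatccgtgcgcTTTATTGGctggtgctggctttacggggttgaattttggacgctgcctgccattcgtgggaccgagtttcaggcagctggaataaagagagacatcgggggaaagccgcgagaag

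The LINC01016 window held the single arm GGTCA at −234 and no other motif, and the LINC00565 window held none. LINC01137 had 5 GC boxes in a window of 80.7% G and C, while LINC00863 had an E-box at −87 and, on the opposite strand, the HOXB13 core at −65. Windows were at hand for 93 members and for 17 of the 19 that passed the threshold with estradiol in either genotype, LINC01016 included. LINC01128 and SNHG15 had none. The full palindrome was found in 0 of 93 members' windows, and in 18 of all 27305 windows of the table (0.0659%). The single arm was found in 4 of 11 members that rose and 1 of 6 that fell, against 43.0% of the members' windows and 37.8% of all windows. GC boxes were found in 5 of 11 that rose and 5 of 6 that fell, against 57.0% of the members' and 44.6% of all windows. The HOXB13 core was in 1 of 93 members' windows (1.08%), that of LINC00863, against 0.993% of all windows, and the E-box in 8 of 93 (8.60%), against 7.43%. These are matches of letters in a window of 300 bases and show no binding.

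Most members were present at low levels. The mean CPM over the 12 libraries was below 1 for 34 members, from 1 to 10 for 62, from 10 to 100 for 18 and above 100 for LINC00657 alone. LINC00657, or NORAD, a cytoplasmic RNA named for its activation by DNA damage, had 352 to 838 CPM in a library and held 29.6% to 53.3% of all the members' counts. The other LINC members with the highest mean CPM were LINC00963 (48.5), LINC00094 (48.2), LINC00665 (44.6) and LINC00263 (27.9). Among the SNHG genes these were SNHG5 (71.9), SNHG7 (40.9), SNHG6 (27.6), SNHG16 (21.1) and SNHG8 (16.5 CPM). The MIR host genes were lower, with MIR4458HG at 3.32, MIR600HG at 3.13, MIR22HG at 2.53, MIR205HG at 2.33 and MIR210HG at 0.631 CPM. Per kilobase of GENCODE 29 exon, LINC00657 came first at 104 CPM per kb among the 109 members matched there. SNHG5 (25.6), SNHG6 (22.2), LINC00493 (21.5), SNHG8 (17.9) and LINC00992 (15.7 CPM per kb) followed. The length covers all annotated exons of a gene, and the annotation used for counting is not given, so this order is rough.

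As a share of all counts, the 115 members together took 0.127% ± 0.00992 in HOXB13 cells with estradiol and 0.130% ± 0.00871 in HOXB13 cells with vehicle (SD, n = 3). In control cells the share was 0.125% ± 0.00623 with estradiol and 0.137% ± 0.0220 with vehicle. The SNHG genes alone took 0.0247% ± 0.000987 with estradiol and 0.0193% ± 0.00262 with vehicle in HOXB13 cells, and 0.0250% ± 0.00345 with estradiol and 0.0211% ± 0.00268 with vehicle in control cells. Steadiness across libraries varied widely between members. LINC00094 had a highest library 1.41 times its lowest, SNHG15 6.04 times and LINC01016 82.3 times.

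The main comparison asks which of these RNAs respond to estradiol. In control cells 10 members rose and 5 fell, and in HOXB13 cells 9 rose and 6 fell, LINC01016 included as a description. The call is an edgeR quasi-likelihood p under 0.05 after Benjamini-Hochberg adjustment over all 14799 tested genes. Over all tested genes, 15.4% passed in control cells (8.65% higher and 6.72% lower) and 13.6% in HOXB13 cells (7.22% higher and 6.38% lower). The members' share, 15 of 115 or 13.0% in each genotype, was near these values in this fit and says nothing particular about noncoding RNAs. With the replicate number as a block, it was 24.3% in HOXB13 cells and 22.6% in control cells, against 30.5% and 34.0% of all genes. Leaving out LINC01016, 9 of 114 members rose and 5 fell in control cells, and 8 rose and 6 fell in HOXB13 cells, 12.3% in each. The median log2 fold change was 0.01 over the members and −0.01 over all tested genes in control cells, and −0.01 over both in HOXB13 cells. By class, 8 LINC members rose and 5 fell in control cells, with 5 and 6 in HOXB13 cells. Among the SNHG genes 2 rose in control cells and 4 in HOXB13 cells and 0 fell in either, while 0 of 6 MIR host genes passed in either. Without the 4 libraries numbered 2, 21 of 111 tested members passed in HOXB13 cells and 16 in control cells, where 22.1% and 24.0% of all tested genes did. The LINC members then had 6 higher and 8 lower in HOXB13 cells and 6 higher and 7 lower in control cells, the SNHG genes 6 and 3 higher, and the MIR host genes 1 and 0 lower, in the same order of genotypes.

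The libraries with the same number paired across the groups in their deviations, so the counts were also taken with the replicate number as a block. Calls, adjusted p-values and SEs elsewhere come from the edgeR fit without the block unless stated otherwise. With the block, 15 members rose and 11 fell in control cells and 14 rose and 14 fell in HOXB13 cells, where 34.0% and 30.5% of all tested genes passed. The control counts include LINC01016, LINC01117 and LINC00365, and the HOXB13 counts include LINC01016. These members met the rule through 1 treatment only and are counted as a description. Leaving out single libraries moved the counts by more than 1.5 times in some fits. In control cells 6 members passed when control estradiol library 2 was left out, 8 when control estradiol library 3 was, and 8 when control vehicle library 1 was. In HOXB13 cells 6 passed without HOXB13 estradiol library 1, 8 without HOXB13 vehicle library 3 and 9 without HOXB13 estradiol library 3.

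The responses in both genotypes, which were measured on separate libraries, ran the same way for all members that passed. Of the 15 called in each genotype, 11 were called in both, 73.3% of each list, and all 11 moved in the same direction. All 19 members called in either genotype had the same sign in both. Without LINC01016 these were 10 of 14, 71.4% of each list, and 18. Over all 115 members the sign matched for 93, and the log2 fold changes correlated at a Pearson r of 0.78 and a Spearman rho of 0.71. This correlation is across genes, which are not independent replicates, and both comparisons share the estimate of spread from a common fit. The overlap, sign match and correlation were not computed over all tested genes, so they show nothing particular to the members. Where estradiol and vehicle libraries of a called member are said below not to overlap, this follows in part from the call. It is a description and no further support, and such gaps were not counted over all tested genes.

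LINC01016, an RNA that has been described as a target of the estrogen receptor in breast cancer cells, was near the limit of detection with vehicle and at a moderate level with estradiol. It had 90, 62 and 93 counts in the HOXB13 estradiol libraries, against 7, 2 and 9 in the HOXB13 vehicle libraries. Control cells had 139, 160 and 102 counts with estradiol, against 2, 3 and 8 with vehicle. No estradiol library came near any vehicle library in either genotype. LINC01016 met the count rule through estradiol libraries only, so this gap is in part a product of the selection. The values are a description. In CPM the levels were 4.35 ± 0.977 with estradiol and 0.308 ± 0.186 with vehicle in HOXB13 cells, and 6.66 ± 1.66 with estradiol and 0.221 ± 0.172 with vehicle in control cells (SD, n = 3). The fitted log2 fold change was 3.79 ± 0.44 in HOXB13 cells and 4.90 ± 0.45 in control cells (SE). The vehicle counts behind these folds are low. The fitted response was lower in HOXB13 cells by 1.11 on the log2 scale, with an interval of −2.63 to 0.41 that includes 0. This difference, too, is a description and not a test.

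LINC00565 had the largest increase among the members that passed, with LINC01016 left aside. It is now named SWINGN after its interaction with the SWI/SNF chromatin remodelling complex and the neighbouring GAS6 gene. It had 3.88, 4.33 and 3.52 CPM in HOXB13 cells with estradiol, against 1.69, 1.0 and 1.36 CPM with vehicle. Control cells had 2.83, 4.80 and 4.07 CPM with estradiol, against 0.752, 0.718 and 0.313 CPM with vehicle. The groups did not overlap in either genotype, the estradiol levels were alike in both, and the vehicle levels were higher in each HOXB13 library than in each control library. The log2 fold change was 1.53 ± 0.31 in HOXB13 cells (SE; edgeR adjusted p = 0.00432) and 2.69 ± 0.34 in control cells (adjusted p = 0.000118). Its call held in all 12 fits that left out 1 library, in both genotypes.

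**Figure D1:**
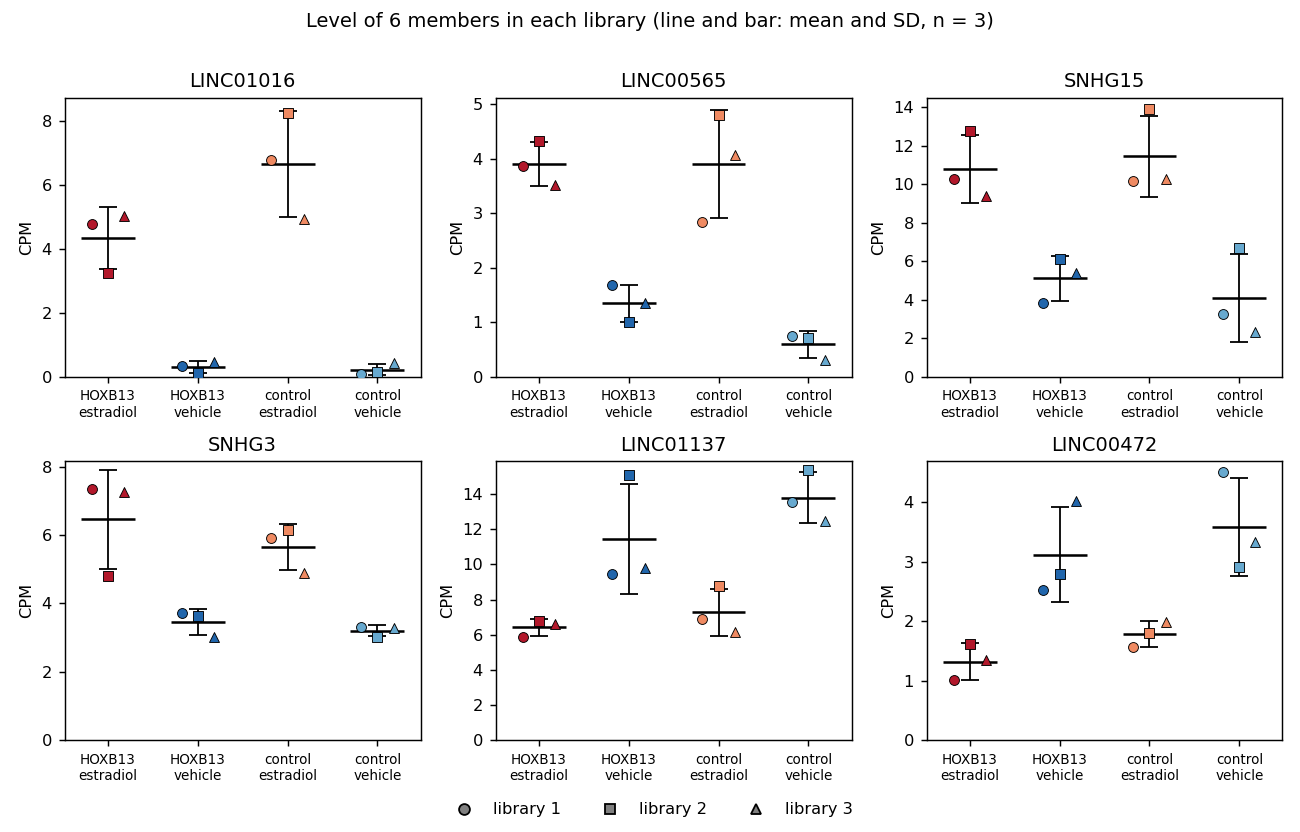
Level of LINC01016, LINC00565, SNHG15, SNHG3, LINC01137 and LINC00472 in each of the 12 libraries, in CPM on a linear axis from 0, with the mean (line) and SD (bar) of the 3 libraries of each group and a symbol for each library number. The estradiol groups lie apart from their vehicle groups in all 6 panels. They lie above them in LINC01016, LINC00565, SNHG15 and SNHG3 and below them in LINC01137 and LINC00472. All 6 were chosen from the members called in both genotypes, so the gaps follow in part from the choice.

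Among the snoRNA host genes, SNHG15, which hosts SNORA9, rose most in control cells. It had 10.3, 12.8 and 9.37 CPM in HOXB13 cells with estradiol, against 3.82, 6.13 and 5.39 CPM with vehicle. Control cells had 10.2, 13.9 and 10.3 CPM with estradiol, against 3.26, 6.66 and 2.30 CPM with vehicle. Estradiol and vehicle libraries did not overlap, and library 2 was the highest in all 4. The log2 fold change was 1.08 ± 0.30 in HOXB13 cells (SE; edgeR adjusted p = 0.0298) and 1.48 ± 0.31 in control cells (adjusted p = 0.00454). The control call held in all 12 fits without 1 library, while the HOXB13 call ended in 5 of them, with adjusted p of 0.0514 to 0.133, without HOXB13 vehicle library 1 or 3 or any HOXB13 estradiol library. Without all 4 libraries numbered 2, the adjusted p was 0.00103 in HOXB13 cells and 3.04e-06 in control cells.

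SNHG3, which hosts SNORA73A and SNORA73B and overlaps the chromatin-bound exchange factor gene RCC1, also rose in both genotypes. It had 7.33, 4.79 and 7.26 CPM in HOXB13 cells with estradiol, against 3.72, 3.64 and 3.03 CPM with vehicle. Control cells had 5.91, 6.14 and 4.90 CPM with estradiol, against 3.31, 3.02 and 3.29 CPM with vehicle. The groups did not overlap in either genotype. Its fitted response on the log2 scale was 0.90 ± 0.20 in HOXB13 cells (SE; edgeR adjusted p = 0.00929, and 0.0506 without HOXB13 estradiol library 1). In control cells it was 0.82 ± 0.21 (adjusted p = 0.0143, and 0.0560 without control estradiol library 2). RCC1 itself rose by 0.50 in HOXB13 cells and by 0.47 in control cells on the log2 scale. Reads of the shared exons may have been counted for either gene or for neither.

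SNHG16, host of the SNORD1 family, and SNHG10, host of SCARNA13, passed in HOXB13 cells only, which does not show that they responded differently. SNHG16 had 24.4, 23.2 and 30.9 CPM in HOXB13 cells with estradiol, against 16.1, 14.3 and 19 CPM with vehicle. Its log2 fold change was 0.67 ± 0.16 in HOXB13 cells (SE; edgeR adjusted p = 0.0106, and 0.0607 without HOXB13 estradiol library 3) and 0.48 ± 0.16 in control cells (adjusted p = 0.0509, and 0.00207 with the replicate block). SNHG10 had 2.60, 2.87 and 2.65 CPM in HOXB13 cells with estradiol, against 0.893, 1.27 and 1.41 CPM with vehicle, and log2 fold changes of 1.18 ± 0.33 in HOXB13 cells (adjusted p = 0.0299) and 0.35 ± 0.32 in control cells (0.520). The HOXB13 call of SNHG10 ended in 5 of the 12 fits without 1 library (adjusted p 0.0534 to 0.125). The tested difference between genotypes was 0.19 ± 0.22 for SNHG16 and 0.83 ± 0.46 for SNHG10 on the log2 scale, each at an adjusted p of 1.0.

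SNHG17, host of 4 SNORA71 snoRNAs, did not pass by edgeR over all 12 libraries and passed under several alternatives. Its log2 fold change was 0.83 ± 0.27 in HOXB13 cells (SE; edgeR adjusted p = 0.0556, and 0.00077 with the block) and 0.71 ± 0.27 in control cells (0.0884, and 0.00276 with the block). In HOXB13 cells it also passed by DESeq2 (0.0228), with no filter on low counts (0.00253) and without the libraries numbered 2 (0.0130), and in control cells with no filter (0.0115). SNHG1 in HOXB13 cells had an edgeR adjusted p of 0.0629, with 0.0287 under the block and 0.0396 by DESeq2, at 0.62 ± 0.21, and had −0.01 ± 0.21 in control cells. The most abundant SNHG genes, SNHG5, SNHG7 and SNHG6, had small fold changes. SNHG5, host of SNORD50B, had a log2 fold change of 0.16 ± 0.16 in HOXB13 cells and 0.08 ± 0.16 in control cells, SNHG6 had 0.20 ± 0.16 and 0.27 ± 0.16 in the same order of genotypes, and SNHG7 had 0.25 ± 0.23 and 0.19 ± 0.23. Over the 13 SNHG genes the median was 0.62 in HOXB13 cells and 0.21 in control cells, against −0.01 over all tested genes in both, and 12 and 10 of the 13 had a positive value.

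**Figure D2:**
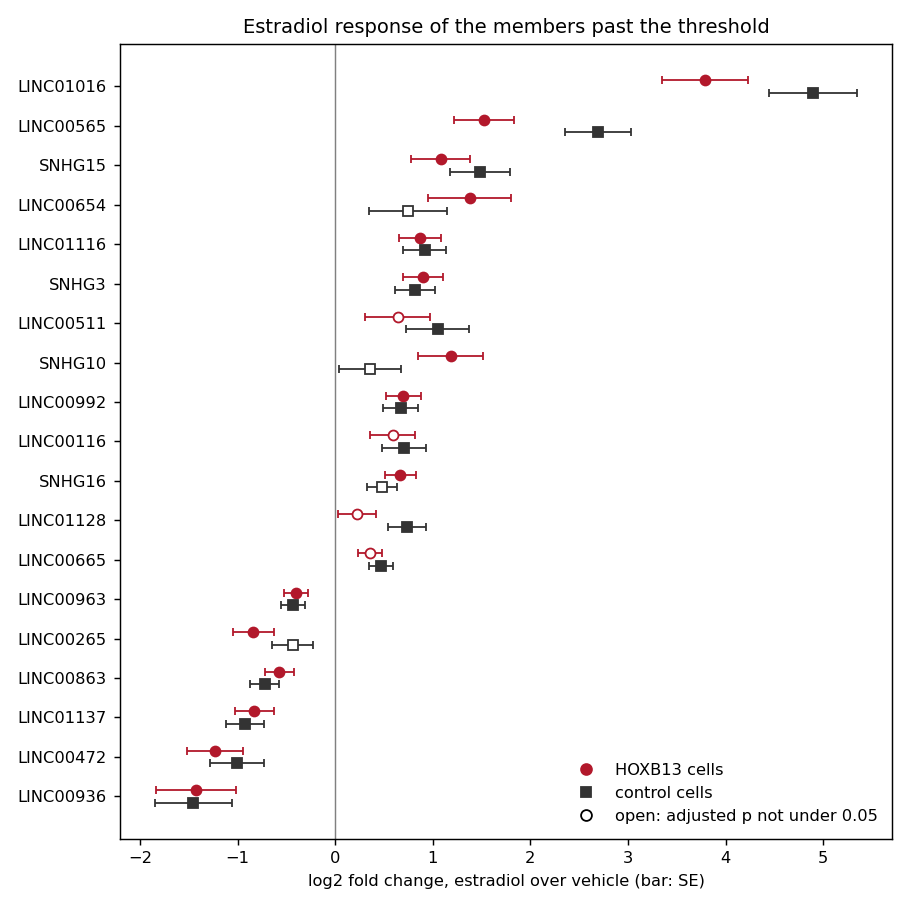
Log2 fold change of estradiol over vehicle for the 19 members past the threshold in either genotype, with SE bars, for HOXB13 cells (circles) and control cells (squares). Open symbols did not pass the adjusted p of 0.05 in that genotype. LINC01016, shown as a description, lies at 3.79 and 4.90. The other members lie between −1.46 and 2.69, and the direction is the same in both genotypes for all 19.

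Other LINC members rose by smaller amounts. LINC01116, an RNA of the HOXD region that has been studied as a growth-promoting lncRNA, had 7.65, 7.19 and 7.2 CPM in HOXB13 cells with estradiol, against 4.32, 3.80 and 3.98 CPM with vehicle. In control cells it had 5.03, 8.41 and 6.25 CPM with estradiol, against 4.36, 2.83 and 3.24 CPM with vehicle. Estradiol and vehicle libraries did not overlap. The log2 fold change was 0.86 ± 0.21 in HOXB13 cells (SE, edgeR adjusted p = 0.0152, and 0.0569 without HOXB13 estradiol library 1). In control cells it was 0.92 ± 0.22 (0.0101, and 0.0582 without control estradiol library 2). Without all libraries numbered 2, the control value was 0.57 and did not pass (edgeR adjusted p = 0.102). LINC01117, on the opposite strand of the same locus, had 9, 17 and 5 counts in HOXB13 cells with estradiol, against 6, 3 and 6 with vehicle, and 6, 20 and 18 counts in control cells with estradiol, against 2, 8 and 1 with vehicle. Reads of the sequence that LINC01117 shares with LINC01116 cannot be assigned to either gene without strand.

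LINC00992 was steadier and more abundant. It had 20.8, 24.0 and 20.9 CPM in HOXB13 cells with estradiol, against 15.8, 13.5 and 11.2 CPM with vehicle. Control cells had 19.1, 25 and 22.7 CPM with estradiol, against 10.7, 17.2 and 14.1 CPM with vehicle. The groups did not overlap in either genotype. The log2 fold change was 0.70 ± 0.18 in HOXB13 cells (SE; edgeR adjusted p = 0.0189) and 0.67 ± 0.18 in control cells (0.0201). The HOXB13 call ended without HOXB13 estradiol library 2 (0.0676) or HOXB13 vehicle library 3 (0.0775), and the control call in 4 of 12 fits (0.0592 to 0.0932).

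The remaining members that rose passed in 1 genotype. LINC00665 averaged 48.2 ± 3.27 CPM with estradiol and 37.7 ± 4.41 CPM with vehicle in HOXB13 cells, and 53.8 ± 6.67 CPM with estradiol and 38.8 ± 3.33 CPM with vehicle in control cells (SD, n = 3). Its log2 fold change was 0.35 ± 0.12 in HOXB13 cells (SE; edgeR adjusted p = 0.0780, and 0.00184 with the replicate block) and 0.47 ± 0.12 in control cells (0.0185). LINC01128 passed in control cells at 0.73 ± 0.19 (0.0193) and had 0.22 ± 0.20 in HOXB13 cells. LINC00511, a neighbour of SOX9 studied as an oncogenic RNA in breast cancer, had 0.64 ± 0.34 in HOXB13 cells and 1.05 ± 0.32 in control cells (0.0412). LINC00116, which encodes mitoregulin, had 0.59 ± 0.23 in HOXB13 cells (0.112, and 0.0330 with the block) and 0.70 ± 0.23 in control cells (0.0494). LINC00654 had 1.38 ± 0.43 in HOXB13 cells (0.0451) and 0.75 ± 0.40 in control cells. These last 3 calls were the least stable: the calls of LINC00511 and LINC00116 ended in 9 of 12 fits without 1 library and that of LINC00654 in 10 of 12, up to adjusted p of 0.142, 0.230 and 0.149. The calls of LINC00665 and LINC01128 each ended in 3 of 12 fits, up to 0.0929 and 0.0849.

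LINC01137 fell in both genotypes. It had 5.90, 6.77 and 6.61 CPM in HOXB13 cells with estradiol, against 9.48, 15.1 and 9.78 CPM with vehicle. Control cells had 6.89, 8.77 and 6.16 CPM with estradiol, against 13.5, 15.4 and 12.5 CPM with vehicle. Each estradiol library lay below each vehicle library of its genotype. Its fitted response on the log2 scale was −0.83 ± 0.20 in HOXB13 cells (SE; edgeR adjusted p = 0.0123) and −0.93 ± 0.20 in control cells (0.00500). The control call held in all 12 fits without 1 library, and the HOXB13 call ended without HOXB13 estradiol library 1 (0.0611) or HOXB13 vehicle library 2 (0.0545).

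LINC00863 fell by a smaller amount at a higher level. It had 12.3, 14.4 and 14.1 CPM in HOXB13 cells with estradiol, against 19.4, 21.9 and 19.4 CPM with vehicle. Control cells had 15.4, 12 and 11.3 CPM with estradiol, against 24.6, 19.6 and 19.8 CPM with vehicle, and the groups did not overlap in either genotype. The log2 fold change was −0.57 ± 0.15 in HOXB13 cells (SE; edgeR adjusted p = 0.0189) and −0.72 ± 0.15 in control cells (0.00413). The control call held in all 12 fits, and the HOXB13 call ended in 3 of 12 (0.0502 to 0.0923). LINC00863 shares exons with NUTM2D on the same strand, and NUTM2D fell by 0.79 in control cells (0.0173) and had −0.26 in HOXB13 cells (0.464).

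LINC00472, the host of miR-30a and miR-30c whose seed is shown above, has been described as a tumour-suppressive RNA in breast cancer. It had 1.01, 1.62 and 1.35 CPM in HOXB13 cells with estradiol, against 2.53, 2.80 and 4.03 CPM with vehicle. Control cells had 1.56, 1.81 and 1.99 CPM with estradiol, against 4.51, 2.92 and 3.34 CPM with vehicle. Estradiol and vehicle libraries did not overlap in either genotype. Its fitted response on the log2 scale was −1.23 ± 0.29 in HOXB13 cells (SE; edgeR adjusted p = 0.0105) and −1.01 ± 0.27 in control cells (0.0225). The HOXB13 call ended without HOXB13 estradiol library 1 (0.0573) or HOXB13 vehicle library 3 (0.0530), and the control call in 4 of 12 fits (up to 0.112). The mature microRNAs were not measured, and LINC00472 shares exon sequence with AL136164.2 on the same strand.

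LINC00936, the antisense transcript of the calcium pump gene ATP2B1, had the lowest fold change of the called members at few counts. It had 12, 10 and 19 counts in HOXB13 cells with estradiol, against 36, 43 and 35 with vehicle, and 25, 9 and 18 counts in control cells with estradiol, against 63, 50 and 29 with vehicle. The groups did not overlap, and the log2 fold change was −1.42 ± 0.41 in HOXB13 cells (SE; edgeR adjusted p = 0.0324) and −1.46 ± 0.39 in control cells (0.0215). ATP2B1, which it overlaps on the opposite strand, had −0.21 ± 0.15 in HOXB13 cells and −0.25 ± 0.15 in control cells and did not pass. The calls of LINC00936 ended in 5 of 12 fits in HOXB13 cells and 3 of 12 in control cells, up to 0.113 and 0.107, and without all libraries numbered 2 they had adjusted p of 0.110 in HOXB13 cells and 0.0719 in control cells.

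LINC00963 and LINC00265 completed the decreases. LINC00963 averaged 41.4 ± 5.42 CPM with estradiol and 54.7 ± 4.87 CPM with vehicle in HOXB13 cells, and 41.6 ± 2.19 CPM with estradiol and 56.1 ± 6.54 CPM with vehicle in control cells (SD, n = 3). Its log2 fold change was −0.40 ± 0.12 in HOXB13 cells (SE; edgeR adjusted p = 0.0457) and −0.43 ± 0.12 in control cells (0.0304), calls that ended in 8 and 5 of 12 fits without 1 library, up to 0.193 and 0.127. LINC00265 averaged 4.43 ± 0.551 CPM with estradiol and 7.93 ± 1.31 CPM with vehicle in HOXB13 cells, with a log2 fold change of −0.84 ± 0.21 (0.0149). It had −0.44 ± 0.21 in control cells, and its HOXB13 call ended without HOXB13 estradiol library 2 (0.0620) or HOXB13 vehicle library 3 (0.0624).

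In control cells NORAD, the most abundant member, passed or not with the setting used. LINC00657 had 555, 402 and 576 CPM in HOXB13 cells with estradiol, against 625, 469 and 700 CPM with vehicle, and 570, 352 and 521 CPM in control cells with estradiol, against 838, 392 and 678 CPM with vehicle. Library 2 was the lowest of its group in all 4. The log2 fold change in control cells was −0.40 ± 0.25 with an edgeR adjusted p of 0.324, and it passed with the replicate block (−0.38; 0.00304), without the libraries numbered 2 (−0.47; 0.00219), without control vehicle library 2 alone (−0.66; 0.0400) and with no filter on low counts (−0.40; 0.0113). In HOXB13 cells it was −0.23 ± 0.25 and passed in no setting run (edgeR adjusted p = 0.0702 with the block). LINC00263, or OLMALINC, passed with the block, at −0.37 in HOXB13 cells (0.0158) and −0.36 in control cells (0.0180), and in HOXB13 cells also without the libraries numbered 2 (−0.40; 0.0464).

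None of the 6 MIR host genes passed by edgeR over all 12 libraries without the block, and MIR205HG in HOXB13 cells was the only case with an unadjusted p under 0.05. MIR205HG, host of miR-205, a microRNA of epithelial cells, had 1.17, 2.14 and 1.25 CPM in HOXB13 cells with estradiol, against 2.23, 3.59 and 3.35 CPM with vehicle. Its log2 fold change there was −1.0 ± 0.32 (edgeR adjusted p = 0.0513, with 0.00976 under the block, 0.0224 by DESeq2, 0.0339 with no filter on low counts and 0.0335 without the libraries numbered 2), and in control cells it was −0.57 ± 0.31 (0.253). MIR22HG had −0.36 ± 0.45 in HOXB13 cells and −0.52 ± 0.44 in control cells, with library 2 the highest in all 4 groups. MIR4458HG, the let-7 seed host, had 0.33 ± 0.31 in HOXB13 cells and 0.17 ± 0.31 in control cells, and LINC00478, host of let-7c, miR-99a and miR-125b, had −0.67 ± 0.37 and −0.48 ± 0.36 in the same order. MIR600HG had 0.38 ± 0.40 in HOXB13 cells and −0.18 ± 0.40 in control cells, and MIR497HG had −0.33 ± 0.62 and 0.17 ± 0.62. MIR210HG, host of the hypoxia-induced miR-210, had −0.83 ± 0.50 in HOXB13 cells and 0.69 ± 0.45 in control cells, at 5 to 27 counts in a library.

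The libraries numbered 2 differed from the others of their group in ways that touched the host genes. The value compared is the log2 CPM of library 2 minus the mean of libraries 1 and 3 of its group. It was positive in all 4 groups for 8 of 13 SNHG genes (61.5%), for 3 of 6 MIR host genes and for 29 of all 115 members (25.2%), while 25.8% of all tested genes were like this. It was negative in all 4 groups for 12 members (10.4%), against 25.4% of all tested genes. The mean of the 4 differences was 0.97 for MIR22HG, 0.65 for SNHG8, 0.62 for SNHG15 and 0.56 for SNHG17, and −0.64 for LINC00657, −0.75 for SNHG14 and −1.81 for LINC00342, which had 0 to 25 counts in a library. Each group holds 1 library of this number, and what sets these libraries apart was not tested.

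**Figure D3:**
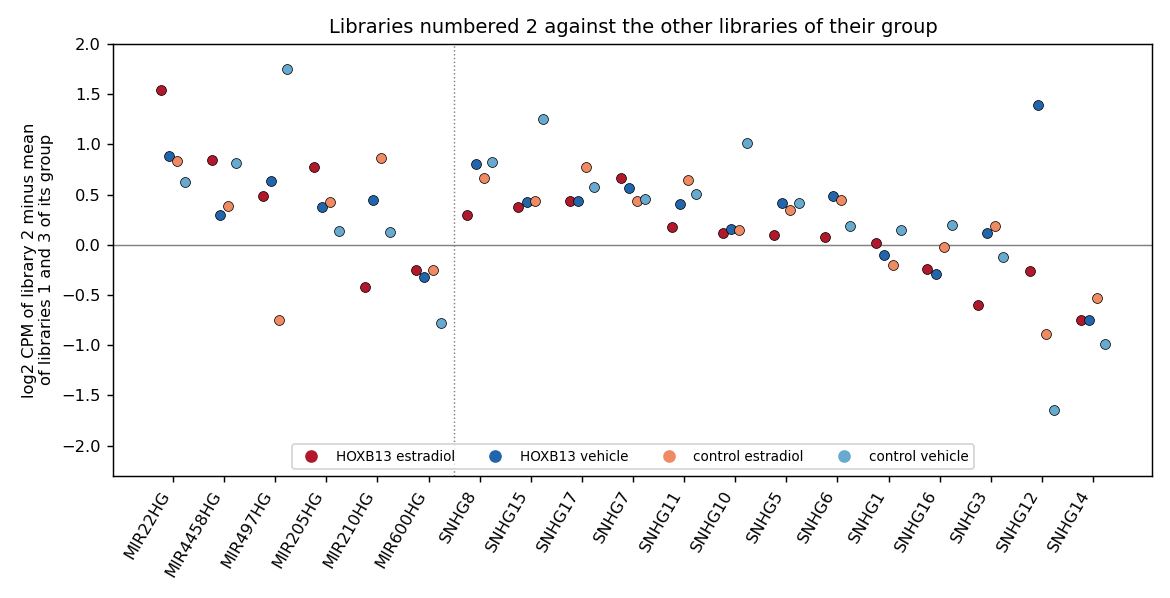
Log2 CPM of library 2 minus the mean of libraries 1 and 3 of the same group, for the 6 MIR host genes (left of the dotted line) and the 13 SNHG genes, with a point for each of the 4 groups. For 11 of the 19 genes all 4 points lie above 0, led by MIR22HG and SNHG8, and for MIR600HG and SNHG14 all 4 lie below.

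The comparison of HOXB13 cells with control cells asks whether the ectopic factor altered these RNAs. No member passed in any form of this comparison. With vehicle, 0 of 115 members passed by edgeR's quasi-likelihood test and 3 had an unadjusted p under 0.05, where 0.0203% and 3.78% of all tested genes did. With estradiol, 0 passed and 2 had an unadjusted p under 0.05, where 0.0135% and 3.3% of all genes did. Averaged over both treatments, 0 passed and 4 had an unadjusted p under 0.05, where 0.149% and 6.05% of all genes did. DESeq2 called 0 members in each of the 3, with 3, 2 and 4 at an unadjusted p under 0.05, and the replicate block and every fit without 1 library also called 0. Over all tested genes DESeq2 called 0.135%, 0.135% and 0.703%, with 4.05%, 3.59% and 6.51% at an unadjusted p under 0.05. The block called 0.405%, 0.392% and 2.61% of all tested genes. With it, 7, 4 and 5 members had an unadjusted p under 0.05, where 9.60%, 10.3% and 14.5% of all genes did.

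The members with an unadjusted p under 0.05 are named here after their values were seen. LINC00565 had the largest of these increases. With vehicle it averaged 1.35 ± 0.342 CPM in HOXB13 cells and 0.595 ± 0.244 CPM in control cells (SD, n = 3), a log2 fold change of 1.17 ± 0.36 (edgeR adjusted p = 0.906), and with estradiol both genotypes averaged 3.91 and 3.90 CPM. LINC00504 had −0.67 ± 0.23 with vehicle and −0.46 ± 0.17 on average (adjusted p = 1.0 and 0.620), and LINC01024 had 0.73 ± 0.32 with vehicle. With estradiol, MIR210HG had −1.40 ± 0.48 and LINC00664 −0.80 ± 0.36, while LINC00221 had −0.31 ± 0.13 and LINC01023 −0.81 ± 0.37 on average over both treatments. LINC01016 had −0.06 ± 0.40 on average, with a 95% interval of −0.92 to 0.80.

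The intervals show what could have been seen. For the average over both treatments, the fitted log2 fold changes ran from −0.94 in LINC00365 to 1.06 in LINC00342, and 107 of 115 lay between −0.5 and 0.5. The 95% interval lay wholly between −1 and 1 for 78 members and reached beyond for the rest, with a median reach of 0.50 to either side. In vehicle alone and in estradiol alone 58 members had an interval within −1 and 1.

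**Figure D4:**
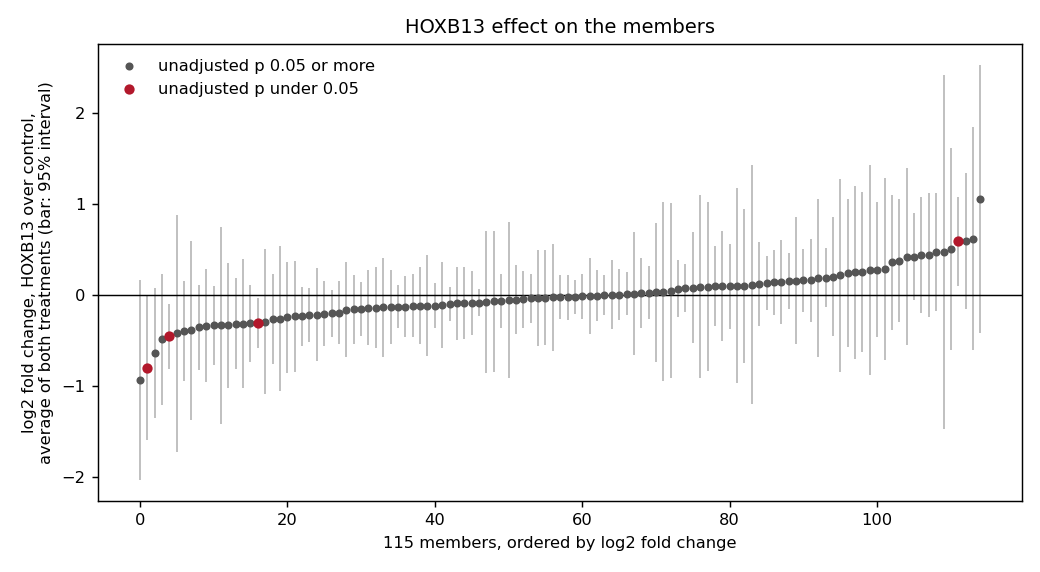
Log2 fold change of HOXB13 cells over control cells, averaged over both treatments, for the 115 members in order of size, with 95% intervals. The values run from −0.94 to 1.06, and the 4 red points, LINC01023, LINC00504, LINC00221 and LINC00565, have an unadjusted p under 0.05.

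Whether HOXB13 changed the response to estradiol was tested as the difference between the responses in both genotypes. By edgeR's quasi-likelihood test 0 members passed and 3 had an unadjusted p under 0.05, where 0.0% and 1.48% of all tested genes did. DESeq2 also called 0 members with 3 at an unadjusted p under 0.05, where 0% and 1.61% of all tested genes did. The 3 members, named after their values were seen, were LINC00565, with a response lower in HOXB13 cells by −1.17 ± 0.46 (95% interval −2.15 to −0.18), MIR210HG at −1.53 ± 0.67 (−2.95 to −0.10) and SNHG1 at 0.63 ± 0.29 (0.00 to 1.26). For LINC00565 the vehicle levels differed between genotypes while the estradiol levels were alike, as given above. This comparison was the least precise: the interval lay within −1 and 1 for 38 members, with a median reach of 1.0 to either side. It therefore does not show equal responses.

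The protein-coding genes that border the members in the RefSeq order were examined because some lncRNAs act on their neighbours. The 15 members called in control cells, LINC01016 included as a description, formed 22 pairs with a tested neighbour. The neighbour was called in 7 of these pairs, 31.8%, against 26 of the 153 pairs of all members (17%). Of all tested genes 15.4% were called. In HOXB13 cells these were 4 of 22 (18.2%), 22 of 153 (14.4%) and 13.6%. Some neighbours, such as MTX2, stand in more than 1 pair. The neighbours called in control cells are named after their values were seen. GAS6, RCC1, CCM2 and NUTM2D moved in the direction of LINC00565, SNHG3, SNHG15 and LINC00863. GRM4, GRIK3 and SOX9 moved against LINC01016, LINC01137 and LINC00511. RCC1 shares exons with SNHG3 and NUTM2D with LINC00863, so the counts within these pairs may not be separate.

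GAS6, a secreted ligand of the TAM receptor kinases, averaged 94.2 ± 1.08 CPM with estradiol and 53.8 ± 0.703 CPM with vehicle in HOXB13 cells, and 92.8 ± 3.70 CPM with estradiol and 43.6 ± 4.35 CPM with vehicle in control cells (SD, n = 3). Its log2 fold change was 0.81 ± 0.10 in HOXB13 cells (SE; edgeR adjusted p = 9.91e-05) and 1.09 ± 0.10 in control cells (6.26e-06). GRM4, a glutamate receptor gene beside LINC01016, averaged 2.41 ± 0.652 CPM with estradiol and 9.64 ± 1.56 CPM with vehicle in HOXB13 cells, and 2.16 ± 0.415 CPM with estradiol and 8.74 ± 0.944 CPM with vehicle in control cells. It fell by 2.00 in HOXB13 cells (7.57e-05) and by 2.02 in control cells (5.40e-05) on the log2 scale. GRIK3, another glutamate receptor gene, rose by 1.16 in HOXB13 cells (0.00101) and 1.42 in control cells (0.000174) beside LINC01137, which fell. SOX9, a transcription factor gene beside LINC00511, fell by 1.20 in HOXB13 cells (2.57e-05) and by 0.89 in control cells (0.000169). Whether a member acts on its neighbour was not tested.

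Genes of the machinery around these RNAs were counted from chosen lists. Over all tested genes, 7.22% rose and 6.38% fell in HOXB13 cells, and 8.65% rose and 6.72% fell in control cells. The median log2 fold change over all tested genes was −0.01 in both. Of 19 tested proteins that assemble snoRNA particles, 6 rose and 0 fell in each genotype, with a median log2 fold change of 0.37 in HOXB13 cells and 0.39 in control cells. NOP56, a core protein of box C/D particles, averaged 136 ± 8.16 CPM with estradiol and 76.6 ± 5.30 CPM with vehicle in HOXB13 cells, and 137 ± 10.9 CPM with estradiol and 70.8 ± 12 CPM with vehicle in control cells (SD, n = 3). DKC1, the pseudouridine synthase of box H/ACA particles, rose by 0.64 in HOXB13 cells and 0.82 in control cells, NOP58 by 0.63 and 0.65, and NOLC1 by 0.55 and 0.56, in that order of genotypes. Of 24 tested protein-coding snoRNA hosts, 4 rose and 0 fell in HOXB13 cells and 5 rose and 0 fell in control cells (medians 0.29 and 0.31), with WDR43 at 0.50 and 0.46 and NCL, which encodes nucleolin, at 0.32 and 0.41.

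Other lists held few called genes. Of 25 protein-coding microRNA hosts, 2 rose and 2 fell in HOXB13 cells and 1 rose and 2 fell in control cells. These were led by MCM7, a replicative helicase subunit that hosts the miR-106b cluster, at 1.20 in HOXB13 cells and 1.34 in control cells, with SREBF1, host of miR-33b, at −0.62 and −0.50 and the phosphatase gene CTDSP2 at −0.41 and −0.43. Of 16 microRNA processing genes, 0 passed in HOXB13 cells and 1 rose in control cells, SRRT (0.30), a partner of the cap-binding complex. Of 16 nonsense-mediated decay genes, which degrade many SNHG transcripts, 0 passed in HOXB13 cells and 1 fell in control cells, SMG6 (−0.43). Of 32 other named long noncoding RNAs, 5 rose and 0 fell in HOXB13 cells, and 1 rose and 1 fell in control cells. DSCAM-AS1, a lncRNA of luminal breast cancer, rose by 0.63 in HOXB13 cells and 0.60 in control cells, and TUG1 fell by 0.40 in control cells. GAS5, another snoRNA host, had 0.03 in HOXB13 cells and 0.04 in control cells and did not pass. H19 (1.17), BCYRN1 (0.89), DLEU2 (0.77) and TINCR (0.57) rose in HOXB13 cells and are named after their values were seen. None of these genes passed in a HOXB13 comparison by edgeR, and these counts carry no test of the lists.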

How the data were processed

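RNA sequencing measured 12 libraries of T47D cells, 3 in each of 4 groups assigned from the labels. The authors deposited 1 table of raw read counts per gene symbol. Per the submitters' processing notes, FastQC, STAR, Picard and HTSeq were used with GRCh37 and hg19. Their versions, the annotation release and how strand was handled: not given in the sources used here. Members and lists were chosen with earlier results of these data known.

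Genes were filtered with filterByExpr (minimum count 10, minimum total 15), normalized by TMM and tested with edgeR 4.0.16 in R 4.3.3 by a robust quasi-likelihood F test on group means over all 12 libraries. P-values were adjusted by Benjamini-Hochberg over 14799 genes at a threshold of 0.05. CPM used TMM library sizes, with a prior count of 2 on the log2 scale. The procedure was tested on simulated data. Genes named by rule are LINC01016, members past the threshold in a comparison (up to 12 per direction), the 5 members of each class with the highest mean CPM, up to 4 just inside and outside the rule, HOXB13, the 4 estrogen markers and up to 4 called genes per list with the largest change in control cells. Every other gene named, further SNHG and MIR host genes and members that passed with the block included, was chosen after its values were seen or by position. RefSeq and GENCODE tables on GRCh38 gave names, neighbours and sequences, so no member coordinates other than those of printed sequences are used.

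Same-numbered libraries deviated together, with correlations of 0.132 to 0.457 for estradiol in control cells and 0.184 to 0.354 in HOXB13 cells. The number was therefore taken as pairing them in the replicate block. The main fit, which gave the main calls and SEs, left this pairing out. Alternatives were the replicate block, DESeq2 1.42.0, RLE scaling, no filter, leaving out each library, and leaving out all libraries numbered 2. Intervals cover the spread between libraries, and low counts limit their precision.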

Additional observations from a re-analysis of the deposited data

How the results depend on the processing

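No member that passed changed direction under any alternative run. With the replicate block, 28 members passed with estradiol in HOXB13 cells and 26 in control cells (24.3% and 22.6%, against 30.5% and 34.0% of all genes), with 15 in each without it. LINC01016 is in all of these counts, and LINC01117 and LINC00365 are in the 26, as a description. Leaving out 1 library at a time gave 6 to 19 in control cells and 6 to 16 in HOXB13 cells. DESeq2 called 20 members in HOXB13 cells and 17 in control cells, 17.4% and 14.8% of those tested, against 17.2% and 19% of all genes. RLE scaling called 15 and 14, 13.0% and 12.2%, against 13.6% and 15.3% of all genes. With no filter it was 15 and 19, 13.0% and 16.5%, against 8.99% and 10.2% of all genes, and without the libraries numbered 2 it was 21 and 16, 18.9% and 14.4%, against 22.1% and 24.0%, in that order of genotypes. Requiring 10 counts in all 12 libraries would keep 72 members in place of 115. HOXB13 comparisons called 0 members in every setting, where 2.61% of all genes passed for the average over both treatments with the block. The cause of these shifts was not tested.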
